A study of Mus musculus with 6 samples.

Results

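Interferon-stimulated effector genes encode the proteins that cells make once interferon has bound its receptor, among them RNA sensors, antiviral enzymes, ubiquitin-like modifiers and secreted chemokines. The genes described here are 41 mouse genes of this kind, chosen by symbol and kept where their mean value over the 6 libraries was at least 20. All 41 were found in the deposited table of 47729 genes and reached that mean, and all 41 were among the 19308 genes tested. *Cxcl10*, with 36, 13 and 9 reads in the Control libraries, passed the test's own limit of a mean of 20 reads only because the LS1 libraries were counted too. RNAseq was done on the proximal tibial epiphyses of 3 LS1 and 3 Control mice at 14 days of age, in generation F13. LS1 is the first Longshanks line (labelled Longshanks 1), bred for long tibiae relative to body mass, and Control (labelled Control (ICR)) is the random-bred line kept in parallel. No treatment is recorded, and the mice came from separate families. Each library held polyadenylated RNA from both epiphyses of 1 mouse, so that cartilage, bone and marrow were measured together.

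Type I interferons bind the receptor formed by IFNAR1 and IFNAR2, which activates the kinases JAK1 and TYK2. These activate transcription factors that enter the nucleus and bind the interferon-stimulated response element (ISRE) in promoters. Interferon gamma acts through another receptor and the gamma-activated site (GAS), and many genes answer to both. In bone, interferon signaling is best known for restraining osteoclast formation, and marrow cells are among the cells that respond to it.

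The promoters of 5 of these genes are shown for the element through which type I interferon acts, which 4 of them hold in 1, 2 or 3 copies and *Fgl2* lacks in its window. RefSeq promoter windows (build GRCm38.p6, 250 bases before to 50 bases after the transcription start) were matched for 30 of the 41 genes. The other 11 were *Ifi27l2a*, *Parp9*, *Usp18*, *Zbp1*, *Dhx58*, *Mx1*, *Ifi204*, *Parp14*, *Rtp4*, *Mx2* and *Oas2*. The ISRE core was searched as GAAA-NN-GAAA (N for any base, hyphens added for reading), or TTTC-NN-TTTC on the other strand, and the GAS as TTC-NNN-GAA, which reads the same on both strands. An ISRE core lay in 15 of the 30 genes (50%), against 3.99% of the 27025 genes with a window of the same length, and 6 of the 15 held at least 2. A GAS lay in 6 of the 30 (20%) against 9.55% of all genes, and 3 of the windows held both motifs. In each line the sequence runs 5′ to 3′ on the gene's strand from 230 bases before to 20 bases after the start, with the ISRE letters in capitals. The windows are, in the same order, chr5:92348870-92349119 (minus strand), chr4:156200799-156201048 (minus strand), chr19:34640659-34640908 (plus strand), chr12:26456433-26456682 (minus strand) and chr5:21372443-21372692 (plus strand).
*Cxcl10*: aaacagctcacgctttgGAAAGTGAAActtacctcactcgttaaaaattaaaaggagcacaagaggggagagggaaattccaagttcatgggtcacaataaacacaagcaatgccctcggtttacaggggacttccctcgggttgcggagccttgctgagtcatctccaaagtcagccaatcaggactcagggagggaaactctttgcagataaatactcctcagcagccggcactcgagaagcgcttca
*Isg15*: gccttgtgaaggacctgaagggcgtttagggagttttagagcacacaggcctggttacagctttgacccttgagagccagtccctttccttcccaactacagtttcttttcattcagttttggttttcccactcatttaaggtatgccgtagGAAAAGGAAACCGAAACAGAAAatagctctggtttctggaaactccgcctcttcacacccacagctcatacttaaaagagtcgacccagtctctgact
*Ifit1*: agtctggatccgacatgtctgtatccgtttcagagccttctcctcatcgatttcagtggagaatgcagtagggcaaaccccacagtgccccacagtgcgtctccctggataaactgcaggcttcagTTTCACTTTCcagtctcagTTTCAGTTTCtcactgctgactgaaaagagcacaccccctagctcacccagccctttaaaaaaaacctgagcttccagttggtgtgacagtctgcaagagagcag
*Rsad2*: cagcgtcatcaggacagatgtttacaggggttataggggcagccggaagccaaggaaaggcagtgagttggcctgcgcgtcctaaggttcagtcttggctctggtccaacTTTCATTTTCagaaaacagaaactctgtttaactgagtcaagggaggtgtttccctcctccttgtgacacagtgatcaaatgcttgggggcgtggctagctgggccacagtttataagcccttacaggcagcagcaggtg
*Fgl2*: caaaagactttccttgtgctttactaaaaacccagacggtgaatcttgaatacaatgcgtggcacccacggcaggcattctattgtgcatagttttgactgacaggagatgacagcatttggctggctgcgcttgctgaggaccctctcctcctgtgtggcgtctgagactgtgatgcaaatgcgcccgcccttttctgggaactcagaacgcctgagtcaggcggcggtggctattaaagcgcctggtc

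*Cxcl10* held 1 core starting 213 bases before the start, and *Isg15* held 3 overlapping cores starting 78, 72 and 66 bases before it. *Ifit1* held 2, starting 104 and 85 bases before the start, and *Rsad2* 1, starting 120 bases before it. *Fgl2* held no ISRE core in its window and 1 GAS, starting 36 bases before the start. The median log2 difference (LS1 minus Control) was 1.39 for the 15 genes with an ISRE core, with a range of 0.52 to 5.14, and 0.89 for the 15 without one, with a range of 0.13 to 2.11. A match describes letters in a window and does not show binding, and the groups with and without a core overlapped widely.

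A Control library held 68803249 to 76581954 reads and an LS1 library 82227711 to 88745366. Values are normalized counts, the read counts divided by 1 size factor per library, and 1 read was worth 0.870 to 1.11 of them. LS1 replicate 3 stood apart from the other LS1 libraries. On the first principal component (35.1% of the variance) the Control libraries lay between -41.5 and -22.1, LS1 replicates 1 and 2 at 43.7 and 50.1, and LS1 replicate 3 at -4.29. Results are therefore given with and without it, which is a choice made with the pattern known. Expression was compared with limma on log2(normalized count + 1), with Benjamini-Hochberg adjustment over all genes tested and a threshold of 0.05, and each difference is given ± its standard error from that fit. Fold changes on this scale understate the change of low genes, and in bulk RNA fewer cells of a type cannot be told apart from less RNA per cell.

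All 41 genes had a higher mean in LS1 than in Control on the log2 scale, where 50.7% of all genes tested did, but the difference came from 2 of the 3 LS1 mice. The log2 differences ran from 0.13 in *Helz2*, a nuclear receptor coactivator, to 5.14 in *Cxcl10*, a chemokine. Median deviations of the 41 genes from Control, on the log2 scale, were 1.48, 2.16 and 0.02 in LS1 replicates 1, 2 and 3, while the Control libraries lay at 0.19, -0.06 and -0.18. LS1 replicates 1 and 2 were both above all Control libraries in 39 genes, against 17.9% of all genes tested, and the exceptions were *Ifi35* and *Ifi27l2a*. Taken singly, LS1 replicate 1 was above the Control range in 40 genes (34.5% of all genes tested), and so was LS1 replicate 2 (30.1%). LS1 replicate 3 was above the Control range in 9 genes (30.3% of all genes tested), within it in 22 (43.6%) and below it in 10 (26.2%). At least a 2-fold excess over the Control mean was seen for 30, 33 and 1 of the genes in LS1 replicates 1, 2 and 3, the last being *Fgl2*. In 27 genes the excess was at least 2-fold in both LS1 replicates 1 and 2, against 1.62% of all genes tested.

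The mice of LS1 differed among themselves more than those of Control. The SD of log2 values within a group had a median of 0.24 in Control and 1.12 in LS1 over the 41 genes, and was larger in LS1 in 38 of them (92.7%). Over all genes tested the medians were 0.19 and 0.26, and the SD was larger in LS1 in 63.4%. LS1 replicate 2 was higher than LS1 replicate 1 in 37 of the 41 genes, against 51.4% of all genes tested. The exceptions were *Ifi27l2a*, *Trim30a*, *Samd9l* and *Ifi203*.

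With this spread, limma called 0 of the 41 genes (adjusted p 0.167 to 0.835), against 0.0725% of all genes tested in either direction and 0.0104% as higher in LS1. At an unadjusted p-value under 0.05 from limma, 14 of the 41 were higher in LS1, against 7.08% of all genes tested, and this count was 7, 5 and 3 without Control replicate 2, Control replicate 3 and LS1 replicate 1 and 40 without LS1 replicate 3. The test of edgeR on the recovered reads called 0 (0.00518% of all genes tested as higher), with 36 at an unadjusted p-value under 0.05 (7.29%), and DESeq2 called 14 (1.43%). Without LS1 replicate 3, limma called 30 of the 41 as higher (1.17% of all genes tested), edgeR 34 (1.24%) and DESeq2 36 (3.15%). These shares over all genes tested also apply to the counts by role given below. *Cxcl10*, which passed the filter only through the LS1 libraries, is counted under DESeq2 and in each count without LS1 replicate 3. No overlap between the groups, with LS1 higher, was seen in 9 genes, *Isg15*, *Oas2*, *Oasl1*, *Rtp4*, *Xaf1*, *Zbp1*, *Bst2*, *Phf11b* and *Fgl2*, and 10.3% of all genes tested did the same. For 1 gene alone, an exact permutation test of 3 mice against 3 cannot go below a two-sided p of 0.1.

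**Figure D1:**
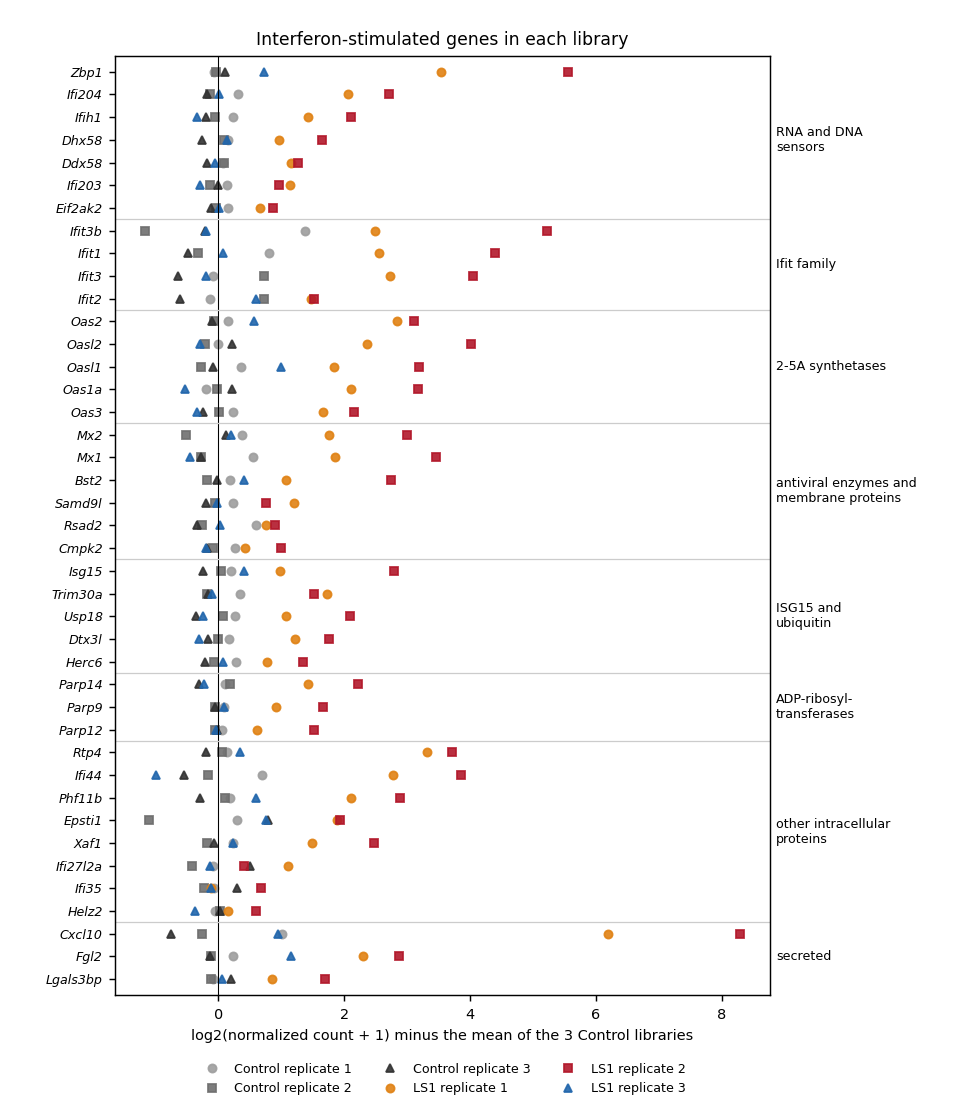
Each row is 1 of the 41 genes, grouped by role, and each symbol is 1 library, placed on the horizontal axis at its log2(normalized count + 1) minus the mean of the 3 Control libraries. LS1 replicates 1 and 2 lie to the right in nearly every row, with medians of 1.48 and 2.16, while LS1 replicate 3 lies among the Control libraries in most rows, with a median of 0.02.

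The sensors of foreign RNA and DNA were higher in the same LS1 mice as the rest of the family, with a median log2 difference over 7 genes of 0.92. *Zbp1*, a sensor of Z-form nucleic acid that can trigger necroptosis, had 79.7, 80.9 and 89.6 normalized counts in Control replicates 1, 2 and 3 and 978, 3954 and 139 in LS1 replicates 1, 2 and 3. The groups did not overlap, with LS1 replicate 2 at 47.4 times the Control mean and LS1 replicate 3 at 1.67 times. Its log2 difference was 3.27 ± 1.31, the largest of the sensors, and 4.54 without LS1 replicate 3. *Eif2ak2*, which encodes the kinase PKR that stops translation on double-stranded RNA, differed least of the sensors and was already abundant in Control. It had 2907, 2545 and 2423 normalized counts in Control and 4168, 4795 and 2649 in LS1, with LS1 replicate 3 inside the Control range, and a log2 difference of 0.52 ± 0.20. The other 5 sensors were *Ddx58* (RIG-I), *Ifih1* (MDA5) and *Dhx58* (LGP2), helicases that recognise viral RNA, and *Ifi203* and *Ifi204* of the DNA-binding p200 family. Their log2 differences ran from 0.60 to 1.60. Of the 7 sensors, 0 passed limma, 3 passed DESeq2 and all 7 passed limma without LS1 replicate 3.

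The Ifit proteins bind viral RNA that lacks the host's cap methylation, and the median log2 difference of their 4 genes was 2.26, the largest of the role groups. *Ifit1* had 220.0, 101 and 89.6 normalized counts in Control and 743, 2659 and 132 in LS1, so that LS1 replicate 3 was within the Control range and LS1 replicate 2 was 19.4 times the Control mean. Its log2 difference was 2.34 ± 1.22, and 3.47 without LS1 replicate 3. *Ifit3b* had 81.7, 13.3 and 26.5 normalized counts in Control and 179, 1187 and 27.0 in LS1. It had the largest estimate of the family, 2.51 ± 1.59, and also varied most within Control, where replicate 1 was well above the others. *Ifit2* had 739, 1348 and 534 normalized counts in Control and 2264, 2335 and 1235 in LS1. Control replicate 2 was above LS1 replicate 3, and the log2 difference was 1.20 ± 0.36. In *Ifit3* the log2 difference was 2.19. This gene and *Ifit3b* are close copies, and how the counting divided reads that match both is not stated. With all libraries limma called none of the 4 genes and DESeq2 called 1, *Ifit2*. Without LS1 replicate 3, limma called 1 of the 4 (*Ifit3*, chosen here after its value was seen), edgeR 3 and DESeq2 all 4.

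The 2′-5′ oligoadenylate synthetases make the messenger that activates RNase L, which degrades viral and cellular RNA, and over the 5 genes of this family the median log2 difference was 2.0. *Oas2* had 148, 127 and 124 normalized counts in Control and 953, 1159 and 197 in LS1. Every LS1 library was above every Control library, LS1 replicate 3 at 1.48 times the Control mean, and the log2 difference of 2.17 ± 0.64 was the largest of the family. *Oas3*, whose product prefers long double-stranded RNA, had 449, 385 and 321 normalized counts in Control and 1215, 1706 and 301 in LS1. Its LS1 replicate 3 was below every Control library while the other LS1 mice were above, and the log2 difference was 1.16 ± 0.64. *Oasl2*, which encodes a relative of these enzymes, had 352, 305 and 415 normalized counts in Control and 1834, 5765 and 291 in LS1, again with LS1 replicate 3 below Control. LS1 replicate 2 reached 16.1 times the Control mean of *Oasl2*, and the log2 difference was 2.03 ± 1.20. *Oas1a* and *Oasl1* had log2 differences of 1.58 and 2.0. All 5 passed limma, edgeR and DESeq2 without LS1 replicate 3, and 0 passed limma and 2 passed DESeq2 with it.

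Enzymes and membrane proteins that block viral replication made up 6 of the 41 genes, with a median log2 difference of 1.03. *Mx1*, a dynamin-like GTPase that blocks influenza viruses, had 255, 143 and 144 normalized counts in Control and 632, 1919 and 127 in LS1. LS1 replicate 3 was the lowest of all 6 libraries and LS1 replicate 2 the highest, at 10.6 times the Control mean, which left a log2 difference of 1.62 ± 1.06. *Mx2*, its neighbour on chromosome 16, had 94.8, 51.0 and 79.6 normalized counts in Control and 249, 588 and 83.9 in LS1. LS1 replicate 3 was inside the Control range here, and the log2 difference was 1.65 ± 0.64. *Rsad2* encodes viperin, a radical enzyme that makes a chain-terminating nucleotide, and was the most abundant of the 41 genes per length. It had 13575, 7521 and 7087 normalized counts in Control and 15205, 16805 and 9169 in LS1, so that Control replicate 1 stood above LS1 replicate 3. *Cmpk2*, a nucleotide kinase encoded next to *Rsad2*, had 1453, 1136 and 1065 normalized counts in Control and 1617, 2409 and 1059.6 in LS1. These neighbours had log2 differences of 0.57 ± 0.30 and 0.41 ± 0.27, the smallest of the group, and neither passed limma without LS1 replicate 3. *Bst2*, which encodes tetherin, a protein that holds budding virus at the cell surface, and *Samd9l* had log2 differences of 1.41 and 0.65. In the group, 0 of 6 passed limma, 1 passed DESeq2, and 3 passed limma without LS1 replicate 3.

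*Isg15* encodes a ubiquitin-like protein that is attached to other proteins or secreted, *Herc6* encodes the mouse ligase for it, and *Usp18* encodes the protease that removes it and also damps the receptor. In *Isg15* the Control libraries had 781, 702 and 575 normalized counts and the LS1 libraries 1346, 4694 and 900.1. The groups did not overlap, but LS1 replicate 2 was at 6.84 times the Control mean and LS1 replicate 3 at 1.31 times. The log2 difference was 1.39 ± 0.62 (limma, adjusted p = 0.429). Leaving out LS1 replicate 3 gave 1.88 and an adjusted p of 0.196 from limma, and over all alternatives its adjusted p ran from 0.0233 to 0.721 (limma, edgeR and DESeq2). The lowest came from edgeR without LS1 replicate 3, an alternative added after the data were seen. DESeq2 with all libraries gave an adjusted p of 0.188. *Usp18* had 488, 423 and 317 normalized counts in Control and 851, 1721 and 341 in LS1, with LS1 replicate 3 inside the Control range, and a log2 difference of 0.98 ± 0.55. *Herc6* had 1077, 849 and 764 normalized counts in Control and 1521, 2269.6 and 933 in LS1, with LS1 replicate 3 among the Control libraries, and its log2 difference of 0.73 ± 0.29 was the smallest of the 5 genes. *Trim30a* and the ubiquitin ligase gene *Dtx3l* had log2 differences of 1.05 and 0.89. Of these 5 genes, 0 passed limma and 0 passed DESeq2 with all libraries, and 4 passed limma without LS1 replicate 3.

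The 3 genes of the ADP-ribosyltransferase group encode enzymes that add ADP-ribose to proteins, or their close relatives, with a median log2 difference of 0.89. *Parp9*, whose product works as a complex with DTX3L, had 1648, 1490.0 and 1498 normalized counts in Control and 2902, 4868 and 1647 in LS1. LS1 replicate 3 was within the Control range by less than 1 count, and the log2 difference was 0.89 ± 0.34. *Parp14* had 2971, 3139.6 and 2239 normalized counts in Control and 7395, 12802 and 2349.6 in LS1, where replicate 3 was within the Control range, and its log2 difference of 1.14 ± 0.68 was the largest of the 3. *Parp12*, which acts on translation and stress granules, had 1554, 1439 and 1467 normalized counts in Control and 2271, 4262 and 1444 in LS1, again with replicate 3 within the Control range, and a log2 difference of 0.70 ± 0.33. All 3 passed limma without LS1 replicate 3, and *Parp9* passed DESeq2 with all libraries. The study had picked *Parp9* for qPCR on other mice because of the RNAseq of these samples, so its direction is no independent evidence.

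The other intracellular proteins of the family were the most mixed group, with 8 members and a median log2 difference of 1.46. *Rtp4*, a chaperone of G protein-coupled receptors, had 298, 283 and 238 normalized counts in Control and 2709, 3577 and 344 in LS1. Its groups did not overlap, LS1 replicates 1 and 2 were at 9.93 and 13.1 times the Control mean, and the log2 difference was 2.46 ± 0.99. *Helz2* had 2574, 2703 and 2707 normalized counts in Control and 2949, 4028 and 2064 in LS1, a log2 difference of 0.13 ± 0.21 that was the smallest of all 41. LS1 replicate 3 was the lowest library for *Helz2*, and without LS1 replicate 2 the estimate turned to -0.11. *Ifi27l2a*, a small membrane protein gene, had 343, 273 and 514 normalized counts in Control and 783, 484 and 333 in LS1. Control replicate 3 stood above LS1 replicate 2 in this gene, and the log2 difference was 0.46 ± 0.33. The other 5, *Ifi44*, *Ifi35*, *Xaf1*, *Epsti1* and *Phf11b*, had log2 differences of 0.15 to 1.89, and *Xaf1* among them encodes an antagonist of the apoptosis inhibitor XIAP. The lowest estimate was that of *Ifi35*, which turned to -0.12 without LS1 replicate 2. Of the 8 genes, 0 passed limma, 3 passed DESeq2 and 4 passed limma without LS1 replicate 3.

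Secreted proteins held both the largest difference and the smallest adjusted p-value. *Cxcl10*, a chemokine that draws T cells and NK cells through CXCR3, had 36.3, 14.4 and 9.95 normalized counts in Control and 1351, 5753 and 34.5 in LS1. It was the lowest of the 41 genes in Control, and LS1 replicates 1 and 2 were at 66.8 and 284 times the Control mean, while LS1 replicate 3 was within the Control range. The log2 difference was 5.14 ± 2.17 (limma, adjusted p = 0.434). Leaving out LS1 replicate 3 gave 7.24 and an adjusted p of 0.0132 from limma, and over all alternatives the adjusted p ran from 1.14e-11 to 0.715 (limma, edgeR and DESeq2). The lowest came from DESeq2 without LS1 replicate 3, an alternative added after the data were seen. DESeq2 with all libraries gave an adjusted p of 0.0013. *Fgl2*, a fibrinogen-like protein of macrophages and T cells that acts as a prothrombinase or an immune suppressor, had 883, 699.5 and 691 normalized counts in Control and 3707, 5507 and 1679.9 in LS1. All LS1 mice were above all Control mice, and *Fgl2* was the gene in which LS1 replicate 3 departed most from Control, at 2.22 times the mean. Its log2 difference was 2.11 ± 0.40, with an adjusted p of 0.167 from limma, the lowest of the 41. Leaving out LS1 replicate 3 gave 2.58 and an adjusted p of 5.75e-05 from limma, within a range of 6.3e-28 to 0.502 over all alternatives (limma, edgeR and DESeq2). The lowest again came from DESeq2 without LS1 replicate 3, and DESeq2 with all libraries gave an adjusted p of 1.27e-09. *Fgl2*, too, had been picked for that qPCR because of these samples. The paper names neither *Fgl2* nor *Parp9* among the genes that differed in that qPCR. It measured growth plates alone, pooled from several mice of a later generation. *Lgals3bp*, a secreted glycoprotein that binds galectins, had 2291, 2250.5 and 2807 normalized counts in Control and 4417, 7913 and 2556 in LS1, with LS1 replicate 3 inside the Control range, and a log2 difference of 0.87 ± 0.38. All 3 secreted proteins passed DESeq2 with all libraries. *Cxcl10* was tested only because its LS1 reads counted toward the filter, so its calls are a description only.

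**Figure D2:**
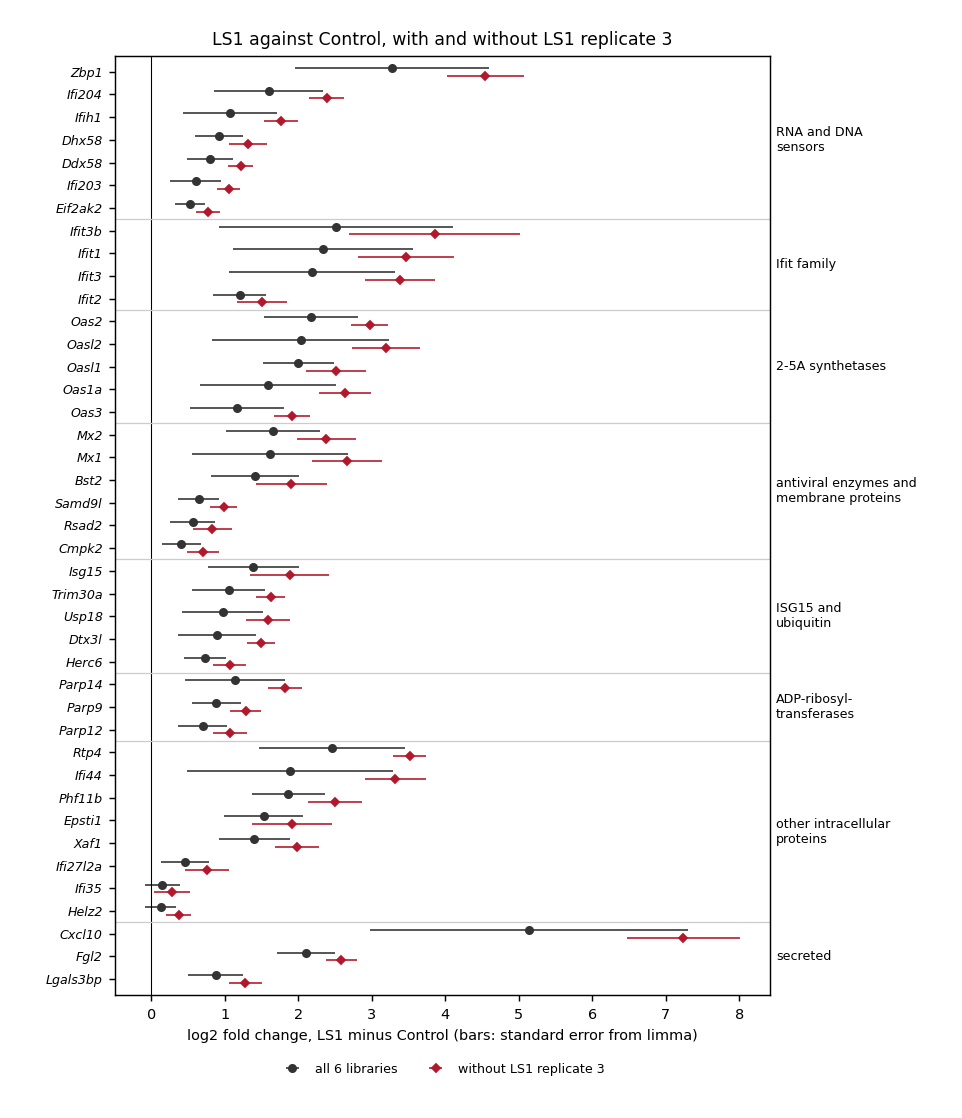
Points are log2 differences (LS1 minus Control) of the 41 genes, grouped by role, with bars of 1 standard error from limma, for all 6 libraries and without LS1 replicate 3. The estimates without that library are larger in each row and most of their bars shorter, and the medians over the 41 genes are 1.20 and 1.88.

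The median log2 difference over the 41 genes was 1.20, against 0.01 over all genes tested. It was 1.88 without LS1 replicate 3 and 0.70 without LS1 replicate 2, the lowest value when any 1 library was left out. Over the 39 genes that the study had not chosen for qPCR it was 1.20. The summed normalized counts of the 41 genes lay between 42351 and 54671 in Control and were 102959, 151743 and 46397 in LS1.

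Levels could be compared between genes only per length, as normalized counts per kilobase of exon. The Control level ran from 8.98 in *Cxcl10* to 2167 in *Rsad2*, a 241-fold range, with a median of 150.1 against 273 over all genes tested. *Rsad2* was followed by *Samd9l* (1009), *Isg15* (907), *Bst2* (903) and *Lgals3bp* (860.4). The last 4 lie close together against the spread between mice. In LS1 the median level was 444, and *Rsad2* (3166), *Isg15* (3060.3) and *Bst2* (3029.6) had the highest means. That order differed by library: *Rsad2* was the highest of the 41 in LS1 replicates 1 (3507) and 3 (2115), while in LS1 replicate 2 it was at 3877, below *Isg15* at 6209 and *Bst2* at 6004. By its mean *Cxcl10* was at place 41 in Control and at place 7 in LS1, at a level of 1057. That mean was carried mostly by LS1 replicate 2, since the levels were 600.0, 2555 and 15.3 in LS1 replicates 1, 2 and 3, and the highest Control library was at 16.1. *Mx2* had the lowest mean in LS1, 85.0. The 21 genes with the lower Control level had a median log2 difference of 1.87 (0.73 to 5.14), and the 20 with the higher level one of 0.84 (0.13 to 2.11). The Control values enter both the level and the difference, so this is a description only.

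**Figure D3:**
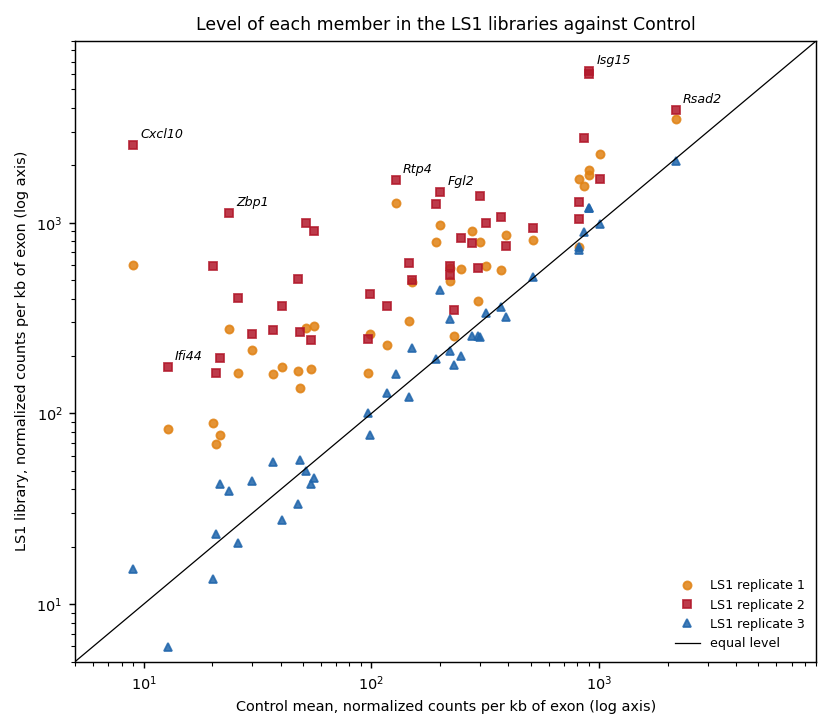
Each gene's level in the LS1 libraries (vertical) is plotted against its Control mean (horizontal), both as normalized counts per kilobase of exon on log axes, with a line where both are equal. LS1 replicates 1 and 2 lie above the line for nearly all genes, farthest for the low genes such as *Cxcl10* (Control mean 8.98), while LS1 replicate 3 follows the line.

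The 41 genes lie on 14 chromosomes of GRCm38, and 20 of them fall into 8 groups of neighbours within 1 Mb. The 4 Ifit genes lie together on chromosome 19 from 34550694 to 34650009, where LS1 replicate 3 was within the Control range for each of them. *Oas2*, *Oas3* and *Oas1a* lie on chromosome 5 from 120730333 to 120907521, and here LS1 replicate 3 was above Control for *Oas2* and below it for both others. *Parp14*, *Dtx3l* and *Parp9* lie on chromosome 16 from 35832874 to 35972605, with log2 differences of 1.14, 0.89 and 0.89. Exons of 8 genes (*Oasl1*, *Ifi35*, *Dhx58*, *Usp18*, *Parp9*, *Dtx3l*, *Eif2ak2* and *Cxcl10*) overlap a gene on the opposite strand. The use of strand in the counting is not stated, so reads in the shared stretches cannot be told apart from those of the partner. *Rtp4*, *Parp14*, *Herc6* and *Ifi203* overlap another gene on the same strand. *Mx2* is annotated as a polymorphic pseudogene, and *Ifit3* and *Ifit3b*, *Mx1* and *Mx2*, *Oas1a*, *Ifi203*, *Ifi204*, *Phf11b* and *Trim30a* have close copies with which they may share reads.

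Of the interferon ligands other than interferon gamma, 20 genes were listed and none passed the filter on reads. In 16 of them every library had at most 3 reads and in 5 every library had 0. Their summed value was 4.43 to 18.8 normalized counts in Control and 7.46 to 16.2 in LS1, so no difference in type I or type III ligand was detectable at this depth. The treatment of reads that match several genes is not stated, so these low counts do not show that ligand RNA was absent. *Ifng*, made mainly by T and NK cells, had 11, 0 and 8 reads in Control and 119, 255 and 7 in LS1. LS1 replicates 1 and 2 were above Control and LS1 replicate 3 was among the Control libraries, as in most of the effector genes. The gene passed the filter on mean reads through LS1 replicates 1 and 2 alone. The log2 difference was 3.55 ± 1.52 (limma, adjusted p = 0.398), and 5.02 without LS1 replicate 3. The 6 receptor genes, *Ifnar1* and *Ifnar2* among them, had log2 differences of -0.12 to 0.19, and 0 of 6 had an unadjusted p-value under 0.05 from limma.

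Of 11 genes for kinases, STATs and IRFs, the proteins that carry the signal to the promoters, 0 were called by limma or by DESeq2. At an unadjusted p-value under 0.05 from limma, 2 (*Jak2* and *Irf5*) were higher, against 7.08% of all genes tested. The median log2 difference of the 11 genes was 0.47. *Irf7*, the regulator that amplifies interferon alpha, had 964, 795 and 710.1 normalized counts in Control and 1907, 6087 and 895 in LS1, a log2 difference of 1.42 ± 0.73. LS1 replicate 3 was within the Control range for *Irf7*. Of 7 negative regulators, 6 were tested, with log2 differences of -0.44 to 0.23, and *Trex1* was counted at 0 reads in every library. How the counting treated reads that match several genes is not stated, so this does not show that *Trex1* RNA was absent. Of 10 receptors and adaptors upstream of interferon production, 0 were called by limma. At an unadjusted p-value under 0.05 from limma, 3 (*Tlr3*, *Tlr7* and *Myd88*) were higher, against the same 7.08%. *Tlr3* was called by DESeq2 (1.43% of all genes tested as higher) and by limma without LS1 replicate 3 (1.17%). *Tlr3*, a receptor for double-stranded RNA, had 477, 463 and 291 normalized counts in Control and 843, 1037 and 522 in LS1. The genes singled out here were named after their values were seen.

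Markers of cartilage, bone and marrow were present in every library, with 7 of 7 chondrocyte, 6 of 6 osteoblast and 6 of 6 B cell markers among the genes tested, and no listed marker was at 0 in all libraries. None of the marker genes was called by limma with all libraries, and several lists differed between the LS1 libraries too. With all libraries, DESeq2 called 3 chondrocyte, 2 T and NK cell and 1 plasmacytoid dendritic cell marker higher in LS1 and 1 osteoblast and 1 B cell marker lower. Without LS1 replicate 3, limma called 2 chondrocyte, 2 macrophage, 1 plasmacytoid dendritic cell and 1 T and NK cell marker higher and 3 B cell and 1 erythroid marker lower. Over all 19308 genes tested, DESeq2 with all libraries called 1.43% higher and 182 genes lower. Limma without LS1 replicate 3 called 1.17% higher and 98 genes lower. Of 6 T and NK cell markers 2 were higher at an unadjusted p-value under 0.05 from limma, where 7.08% of all genes tested were higher, and their summed value ran from 1068 to 1275 in Control and was 1584, 3741 and 1588 in LS1 replicates 1, 2 and 3. Of 8 macrophage markers 1 was higher at that level, against the same 7.08%, and their sum ran from 28265 to 39698 in Control and was 38317, 43047 and 36262 in the LS1 libraries. Among them *Adgre1* was at 3.04, 2.07 and 0.891 times its Control mean in LS1 replicates 1, 2 and 3, and *Marco* at 13.6, 3.44 and 0.357 times, so that both were above Control in LS1 replicates 1 and 2 and below the Control range in LS1 replicate 3 (named after their values were seen). They were the only 2 of the 8 macrophage markers below the Control range in LS1 replicate 3, and the other 6 were within it. In 4 of the 8, LS1 replicates 1 and 2 were both above all Control libraries. Of 6 B cell markers 4 were lower at that level (5.86% of all genes tested), and their sum ran from 37259.5 to 40332 in Control and was 27198, 23515 and 36858 in the LS1 libraries. LS1 replicate 2 was the highest library for the T and NK cell and macrophage sums and the lowest for the B cell sum. Plasmacytoid dendritic cells are a main source of interferon alpha, and of 5 of their markers (without *Bst2*, a member of both lists) 2 were higher at an unadjusted p-value under 0.05, with a sum that ran from 9535 to 10456 in Control and was 13082, 9997 and 10344 in the LS1 libraries. Of 6 erythroid markers 1 was lower at that level, with a median log2 difference of -0.54, and of 7 chondrocyte markers 5 were higher, with a median of 0.50 and LS1 replicate 3 level with LS1 replicate 1. The 7 neutrophil markers had a median of 0.31 (2 higher at that level), the 6 osteoblast markers 0.08 (1 lower), the 5 osteoclast markers 0.04, the 4 endothelial markers 0.08 and the 5 skeletal muscle markers -0.76. The part of cell composition in the differences of the interferon-stimulated genes was not tested.

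**Figure D4:**
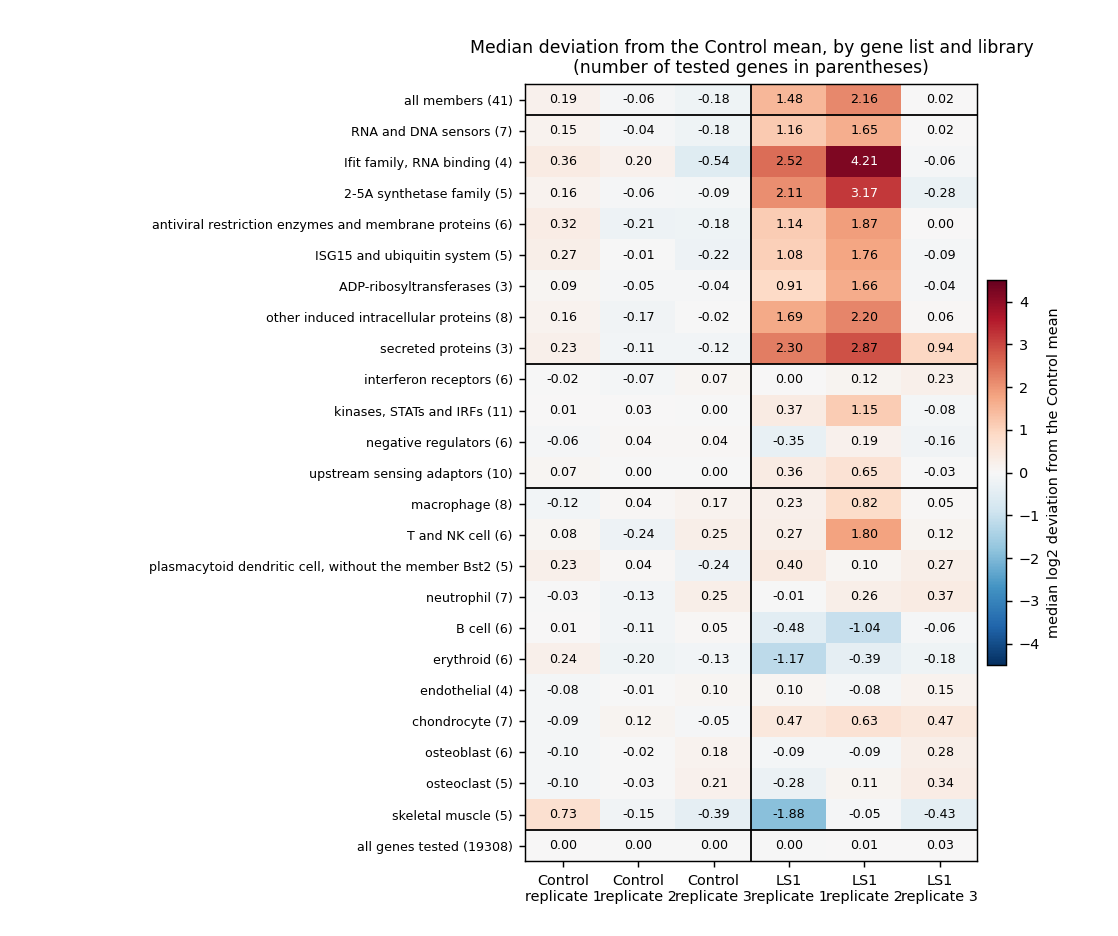
Rows are gene lists (roles of the 41 genes, other interferon pathway genes, cell type markers and all genes tested) and columns the 6 libraries, and each cell gives the median over the list of log2(normalized count + 1) minus the Control mean, with red above and blue below it. The role lists reach up to 4.21 in LS1 replicate 2 and stay near the Control level in LS1 replicate 3 except for the secreted proteins (0.94), while the receptors lie between 0.00 and 0.23 in the LS1 libraries.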

How the data were processed

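Polyadenylated RNA was measured by RNAseq in epiphyses of the proximal tibia from 3 mice of each group. The authors mapped reads to GRCm38 (Ensembl release 84) using HISAT2 2.0.2, counted them per gene with featureCounts 1.4.6 and compared the counts with DESeq2. The use of strand is not given in the sources used here. The deposited values are a signal per gene, the read count divided by 1 size factor per library, and dividing by what 1 read is worth gave whole numbers for 100% of them, within a tolerance of 0.001. The quotients served as recovered read counts. For Control replicate 1 the step was so near 1 that recovered reads cannot be told from rounded values.

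The 19308 genes averaging at least 20 recovered reads were tested on log2(value + 1) in limma 3.58.1 (R 4.3.3), using its trend and robust options, because the values are normalized. On the recovered reads, edgeR 4.0.16 called 7 genes and DESeq2 1.42.0 called 459 over all genes tested, against 14 for limma. These tests, voom, other pseudocounts and filters, a replicate block and leaving out each library in turn were the alternatives. The scripts were tested on simulated data. Samples were grouped by the strain label, and each library is 1 mouse. With 68803249 to 88745366 reads per library, a gene with at most 3 reads was taken as being at the floor, and this covers counting error only.

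The members, roles and marker lists were chosen with earlier results of these data known. Genes given per library are, in each role, those with the largest and the smallest log2 fold change, the most abundant gene per length, and *Isg15*, *Ifit1*, *Mx1*, *Usp18*, *Cxcl10*, *Fgl2* and *Parp9*. Outside the 41 genes, they are the 10 genes with the most similar profile. Any others were named after their values were seen. Symbols and exon lengths came from GENCODE M21 on GRCm38, where 98.9% of identifiers had a symbol, and promoters from RefSeq (GRCm38.p6).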

Additional observations from a re-analysis of the deposited data

How the results depend on the processing

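Over 21 alternatives, 3 of them chosen after seeing the data (edgeR without Control replicate 1, and edgeR and DESeq2 without LS1 replicate 3), the 41 genes gave 861 values. Of these, 745 kept the direction and the side of the threshold of the reported value, 114 passed the threshold where the reported value had not, and 2 turned negative, *Helz2* (-0.11) and *Ifi35* (-0.12), both without LS1 replicate 2. With 1 library left out in turn, *Helz2* ran from -0.11 to 0.37 and *Ifi35* from -0.12 to 0.30. The cause was not tested.

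The number of the 41 genes called was 0 with limma, 14 with DESeq2, 34 with edgeR without LS1 replicate 3 and 36 with DESeq2 without it, and ran from 0 to 30 when 1 library was left out, with 30 reached without LS1 replicate 3. At an unadjusted p-value under 0.05 it was 14 with limma, 36 with edgeR, 35 with DESeq2, 35 with edgeR without Control replicate 1, and 39 and 40 with edgeR and DESeq2 without LS1 replicate 3, and ran from 3 to 40 with 1 library left out (3 without LS1 replicate 1, 5 without Control replicate 3, 7 without Control replicate 2, and 40 without LS1 replicate 3). The median log2 fold change ran from 0.70 (without LS1 replicate 2) to 1.88 (without LS1 replicate 3). Other pathway genes called higher numbered 0 with limma, 1 with DESeq2, and 5 and 9 with edgeR and DESeq2 without LS1 replicate 3, and 0 to 2 with 1 library left out (2 without LS1 replicate 3).

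Over all genes, limma called 14, against 7 with edgeR, 459 with DESeq2, 8 with voom, 3 without trend and robust moderation, 45 without a filter on reads, 9 with a filter at 100 reads, 5 with edgeR without Control replicate 1, and 296 and 992 with edgeR and DESeq2 without LS1 replicate 3. With 1 library left out it ran from 5 (without Control replicate 2) to 324 (without LS1 replicate 3), with 9 without Control replicate 1 and 46 without LS1 replicate 1. Called higher were 2, against 1 with edgeR, 277 with DESeq2, 1 with voom, 1 without trend and robust moderation, 21 without the filter, 5 with a pseudocount of 5, 4 with the replicate block, and 239 and 608 with edgeR and DESeq2 without LS1 replicate 3, and 1 to 226 with 1 library left out (1 without Control replicate 2, 4 without Control replicate 1, 7 without Control replicate 3, and 226 without LS1 replicate 3).

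Titles of both groups share the letters A, B and C, which were taken as replicate numbers. Deviations of same-lettered libraries from their group means correlated at 0.05, 0.02 and 0.22 across genes, so the letters were not taken to pair the mice. With the replicate block, 12 genes were called over all genes tested and 0 of the 41, and 19 of the 41 had an unadjusted p-value under 0.05. With 3 mice per group and genes at few reads, such as *Cxcl10* and *Ifit3b* in Control, the precision is limited by the mice and by counting.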

Other observations

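The 10 genes outside the family with the most similar profile were found among 14729 genes with a mean of at least 100 reads, by the root mean square difference of their log2 deviations from the median profile of the 41 genes over the 6 libraries. They were *Gbp9*, *H2-K1*, *Phf11d*, *Rnf213*, *Gbp8*, *H2-Q7*, *Ccr9*, *Ifi211*, *Irf1* and *9130208D14Rik*, at distances of 0.114 to 0.285, while the 41 genes themselves had a median distance of 0.580 (0.15 to 3.21). Their profile chose them, so their differences between the groups are given as a description.

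*Gbp9*, a guanylate-binding GTPase that acts on pathogen vacuoles, was the nearest, with 1257, 1205 and 1102 normalized counts in Control and 3564, 4772 and 1085 in LS1. *H2-K1*, a classical MHC class I heavy chain that presents peptides to CD8+ T cells, had 12840.3, 13347 and 12148 normalized counts in Control and 27299, 56190.0 and 13964 in LS1, and its groups did not overlap. *H2-Q7*, a nonclassical class I gene, had 329.9, 369 and 309 in Control and 749, 2029 and 377 in LS1. *Irf1*, the transcription factor that drives many genes answering to interferon gamma, had 3151, 3019 and 3419.9 in Control and 6047, 15754 and 2851 in LS1, with LS1 replicate 3 below the Control range.

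*Rnf213*, a giant ubiquitin ligase with antimicrobial activity, had 5033, 4924 and 3838 normalized counts in Control and 10368, 16005 and 3960.4 in LS1. *Ccr9*, a chemokine receptor that also stood on the list of plasmacytoid dendritic cell markers, had 96.9, 82.0 and 49.8 in Control and 209, 305 and 98.9 in LS1, where LS1 replicate 3 exceeded Control replicate 1 by a small margin. *Phf11d* and *Ifi211*, relatives of *Phf11b* and of *Ifi203* and *Ifi204*, had 215, 245 and 189 and 65.6, 44.3 and 61.9 in the Control libraries, and 622, 1271 and 219 and 161, 347 and 72.8 in the LS1 libraries. *Gbp8*, a relative of *Gbp9*, had 289, 211 and 176 in Control and 696, 1425 and 201 in LS1. *9130208D14Rik* had 95.9, 97.6 and 117 in Control and 370, 492 and 80.2 in LS1. In all 10 genes LS1 replicates 1 and 2 were above every Control library, and in 4 of them, *H2-K1*, *H2-Q7*, *Ccr9* and *Ifi211*, so was LS1 replicate 3.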
